A study of Oryctolagus cuniculus with 34 samples.

Results

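The nuclear genes for the subunits of the oxidative phosphorylation machinery were followed in the rabbit supraspinatus, which belongs to the rotator cuff, by bulk RNA sequencing. They were chosen by name alone, as the rows starting with NDUFA, NDUFB, NDUFC, NDUFS, NDUFV, UQCR, COX4 to COX8 or ATP5, with SDHA, SDHB, SDHC, SDHD and CYC1, leaving out the assembly factors of the NDUFAF series. Of 18176 genes in the count files, 52 bore such a name, and all 52 reached a CPM (counts scaled to a common library total) of 1 in at least 4 libraries. A further 20 rows stood under LOC identifiers whose gene numbers RefSeq pairs with such a symbol, and 19 of these reached the same level. Counts of genes passing a test are given for the 52 named rows, and the complexes are described with all 71. By complex these 71 comprised 30 genes of complex I, 4 of complex II, 6 of complex III, 14 of complex IV and 17 of complex V. The matched rows matter most for complexes III and IV, of which the files name only 1 (UQCRQ) and 2 (COX4I1 and COX6A1) genes. RefSeq lists 86 symbols under the rule, so some subunits, such as CYC1, UQCRFS1 and NDUFV1, were not analysed here, nor were the subunits encoded by mitochondrial DNA.

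Oxidative phosphorylation makes most of the ATP of a resting or steadily working muscle. Complex I (NADH dehydrogenase) and complex II (succinate dehydrogenase) pass electrons to coenzyme Q, complex III passes them on to cytochrome c, and complex IV (cytochrome c oxidase) to oxygen. Complexes I, III and IV pump protons across the inner mitochondrial membrane, and complex V (ATP synthase) uses their return to make ATP. Slow fibres and fast oxidative fibres are rich in mitochondria, and fast glycolytic fibres have fewer. Several complex IV subunits come as pairs of a heart and muscle isoform and a more widely expressed one.

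The study has 34 libraries in 6 groups, and the labels give no strain, sex, age or duration for any of them. The short-term groups are repair only (5 libraries), matrix gel, a repair to which a gel made from tissue matrix was added (5), and injury without treatment (4). The long-term groups are repair only (5), matrix gel (5) and uninjured muscle (10). The terms have no common control: the injury was sampled without repair only in the short term, and uninjured muscle only in the long term. Each short-term library held 26904529 to 32313295 counts, and each long-term library 12582302 to 15019158. As labelled, the tissue carried striated muscle transcripts, with a summed level of the 6 measured fast fibre markers of 17300 to 164000 CPM over all groups. The labels do not say that the muscles of a group came from separate animals. If they did not, p-values measure a spread that may be technical.

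Some short-term libraries stood apart from their groups, and the results on these genes rest on them. Short-term repair replicate 4 was the highest of its group for 64 of the 71 subunit genes, and injury replicate 3 was the lowest of its group for 64 of 71. The same libraries differed in fibre and connective tissue content. Repair replicate 4 had the highest summed fast fibre markers of the repair group (154000 CPM against a group median of 37600) and the lowest fibroblast and collagen markers (1230 CPM against 10900). Injury replicate 3 had the lowest fast fibre markers of its group (17300 CPM, median 131000) and the highest fibroblast and collagen markers (8390 CPM, median 1910). Its adipocyte markers were also the highest of the group (1790 CPM, median 773). Its slow fibre markers, at 17400 CPM, were within the group range of 17200 to 24700 CPM. In the long term, gel replicate 1 was the highest of its group for 43 subunit genes and the lowest for 14. Results are therefore given with and without these 3 libraries, which were picked with their values known. Calls made without them describe the remaining libraries and are not independent tests. Scaling between libraries also bears on the levels. The TMM factors, which correct library totals for a few very abundant genes, were 0.741 to 1.48 with injury, 0.809 to 1.52 with repair and 0.958 to 1.3 with the gel in the short term. Short-term repair replicate 4 had the lowest factor of its group and injury replicate 3 the highest of its group. In the long term the factors were 0.852 to 1.08 in uninjured muscle, 0.878 to 1.13 with repair and 0.725 to 0.974 with the gel. Long-term gel replicate 1 had the lowest of them. With library totals in place of these factors, an alternative added after the factors were seen, the median over all genes moved from 0.02 to 0.39 in repair minus injury and from -0.04 to -0.24 in gel minus repair. Medians on both scales are therefore given where they differ. In bulk tissue, fewer muscle cells and less RNA of these genes per cell cannot be told apart.

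**Figure D1:**
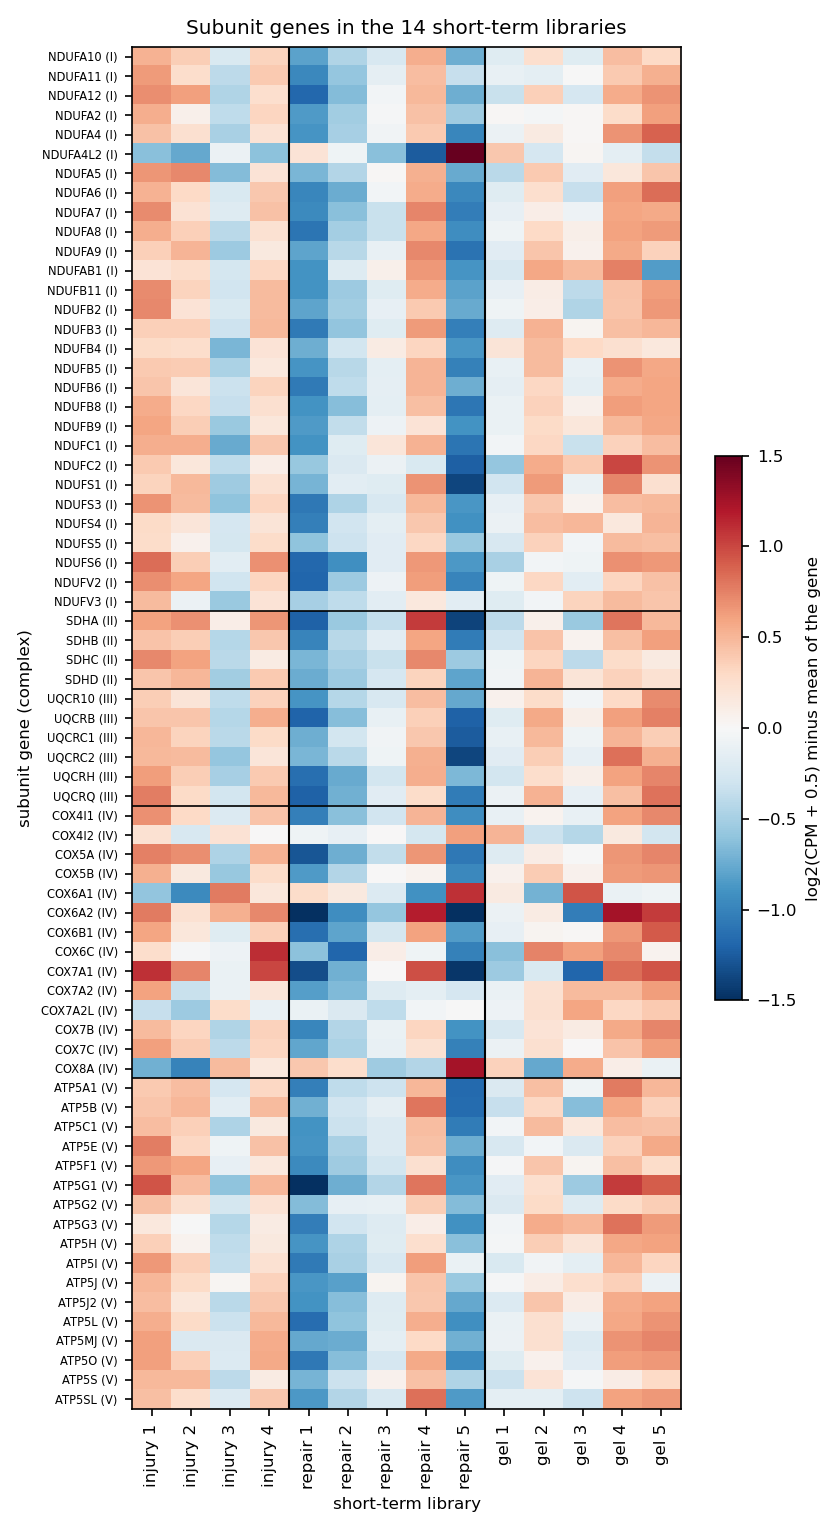
Level of 70 of the 71 subunit genes (rows, grouped by complex) in the 14 short-term libraries (columns), as log2(CPM + 0.5) minus the gene's mean over these libraries, red for above and blue for below the mean. Most rows share 1 pattern of columns, blue in repair replicates 1, 2 and 5 and in injury replicate 3 and red in repair replicate 4; NDUFA4L2, COX6A1 and COX8A depart from it.

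The gel was first compared with the repair alone in the short term, 5 libraries against 5. Nearly all subunit genes were higher on average with the gel, by about the same factor in every complex, but no single gene passed the test. The median log2 difference, gel minus repair, was 0.59 over the 52 named genes and 0.61 over all 71, against -0.04 over the 13526 genes tested. Of the 52, 50 were above 0, as were 45.7% of all genes. In edgeR 0 of 52 had an adjusted p under 0.05, against 0.0% of all genes. At an unadjusted p under 0.05, 20 of 52 (38.5%) were higher and 1 was lower, against 5.65% and 4.73% of all genes. DESeq2 called 1 of the 52, ATP5G3 (adjusted p = 0.0276), beside 0.854% of all genes, and the fit of all 34 libraries called the same gene, beside 0.719%. Limma voom with quality weights called 0, beside 0.0222%. On library totals the median over the 52 was 0.48, with 50 above 0, 30 higher at an unadjusted p under 0.05 (2.2% of all genes) and 0 called, beside 0.0% of all genes called and an all-gene median of -0.24.

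By complex, the medians of this difference were 0.56 for complex I (29 of 30 genes above 0), 0.52 for complex II (4 of 4) and 0.68 for complex III (6 of 6). They were 0.70 for complex IV (11 of 14) and 0.66 for complex V (17 of 17). The standard deviation over genes was 0.16 in complex II, 0.13 in complex III and 0.20 in complex V, and wider in complex I at 0.52 (from -2.18 to 0.96) and in complex IV at 0.38 (from -0.21 to 0.90). The low end of complex I was NDUFA4L2, its only gene below 0, whose value was set by 1 library (repair replicate 5). With NDUFA4 and NDUFA4L2 not counted in complex I, 28 of 28 genes were above 0. The lowest and highest genes were SDHC at 0.29 and SDHD at 0.64 in complex II, and UQCRC1 at 0.58 and UQCRB at 0.89 in complex III. In complex V they were ATP5S at 0.25 and ATP5G3 at 0.96.

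Complex I holds the catalytic NADH-oxidising and quinone-binding arm and many accessory subunits. NDUFS1, which carries iron-sulphur clusters of that arm, had 110, 160, 157, 284 and 68.6 CPM in repair replicates 1 to 5 and 146, 279, 167, 297 and 210 CPM in the gel replicates. The groups overlapped, with repair replicate 4 near the top of the gel range, and the log2 difference was 0.54 (SE 0.34, adjusted p = 0.591). NDUFC2, an accessory membrane-arm subunit, was the highest of complex I at 0.96 (SE 0.28, adjusted p = 0.406). It had 38.9, 49.9, 54.3, 49.2 and 24.5 CPM with repair and 38.4, 85.5, 76.3, 116 and 92.8 CPM with the gel, so that gel replicate 1 alone lay within the repair range. NDUFAB1, the mitochondrial acyl carrier protein, which is also used outside complex I, had a difference of 0.43 (SE 0.33).

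Complex II is the only one of the 5 without subunits from mitochondrial DNA and is also an enzyme of the citric acid cycle. SDHA, its flavoprotein, had 285, 448, 513, 1360 and 252 CPM with repair and 502, 694, 448, 1150 and 925 CPM with the gel. Repair replicate 4 exceeded every gel library, and the other 4 repair libraries lay between 252 and 513 CPM. SDHB, the iron-sulphur subunit, likewise had its highest repair value in replicate 4, with 106, 158, 189, 319 and 102 CPM against 173, 285, 219, 289 and 323 CPM. In complex III, UQCRQ, a small subunit, had 175, 246, 362, 494 and 197 CPM with repair and 383, 585, 373, 558 and 717 CPM with the gel (log2 difference 0.87, SE 0.31, adjusted p = 0.413). For UQCRQ repair replicate 4 was the only repair library inside the gel range.

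Complex IV held the genes whose groups did not overlap and also most of those that went the other way. COX5B, a zinc-binding subunit, had 212, 280, 382, 396 and 195 CPM with repair and 399, 498, 397, 595 and 602 CPM with the gel. COX7A2, the widely expressed isoform of its pair, had 4.94, 5.59, 7.88, 8.18 and 7.60 CPM with repair and 8.5, 10.8, 12.8, 12.9 and 14.3 CPM with the gel. In both genes the lowest gel library lay just above the highest repair library. The log2 differences were 0.81 (SE 0.27, adjusted p = 0.413) for COX5B and 0.84 (SE 0.22, adjusted p = 0.383) for COX7A2, which DESeq2 called (adjusted p = 0.0493). These were 2 of the 71 genes, against 0.887% of all genes tested that were higher with the gel without overlap.

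Among the genes of complex IV, COX6C, a small subunit, was the highest at 0.90 (SE 0.34, adjusted p = 0.427). Against the common direction stood 3 genes of complex IV and 1 of complex I. COX8A, COX4I2 and COX6A1 had differences of -0.21 (SE 0.39), -0.10 (SE 0.32) and -0.06 (SE 0.42). COX6A1, the widely expressed partner of the muscle isoform COX6A2, had 35.3, 32.1, 25.0, 15.2 and 62.8 CPM with repair and 31.8, 17.5, 56.1, 27.1 and 27.8 CPM with the gel. Its lowest repair library was replicate 4, the one in which most other subunit genes were highest. NDUFA4L2, known as a hypoxia-induced relative of NDUFA4, had 6.05, 4.92, 3.18, 1.89 and 100 CPM with repair and 7.03, 4.27, 5.29, 4.63 and 3.93 CPM with the gel. Repair replicate 5 alone set its log2 difference of -2.18 (SE 0.90, adjusted p = 0.453): without that library the difference was 0.35.

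Complex V makes ATP with a catalytic head and a membrane rotor. ATP5G3, 1 of 3 genes for the rotor's c subunit, had the smallest p of all subunit genes in this comparison. It had 84.0, 142, 152, 186 and 92.3 CPM with repair and 168, 255, 244, 306 and 270 CPM with the gel (log2 difference 0.96, SE 0.24, adjusted p = 0.383). Only gel replicate 1 and repair replicate 4 overlapped. The other c subunit genes, ATP5G1 and ATP5G2, had differences of 0.81 (SE 0.44) and 0.35 (SE 0.23). These genes encode the same mature protein, and reads shared between near-identical copies cannot be assigned with certainty here. The catalytic beta subunit ATP5B had 754, 1020, 1130, 2160 and 557 CPM with repair and 979, 1540, 796, 1860 and 1580 CPM with the gel (0.32, SE 0.36), and so overlapped widely. The alpha subunit ATP5A1 had a difference of 0.73 (SE 0.32).

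Without repair replicate 4 and injury replicate 3, the median difference over the 71 genes was 0.90 in place of 0.61, with 67 of 71 above 0 and 0 called, beside 0.0952% of all genes. Connective tissue and slow fibre markers differed in level between these groups too, while fast fibre markers had no common direction. The 7 fibroblast and collagen markers were all lower with the gel (median log2 difference -1.15, 0 called), with summed levels of 3660 to 10000 CPM against 1230 to 83900 CPM with repair. The 6 measured slow fibre markers summed to 7310 to 22600 CPM with the gel and 2870 to 14800 CPM with repair. Their median log2 difference was 1.40, with 6 of 6 above 0 and 0 called. The 6 measured fast fibre markers had a median of -0.07, with 2 above 0, 4 below and 0 called, against -0.04 over all genes. The part of these markers in the difference of the subunit genes was not tested.

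**Figure D2:**
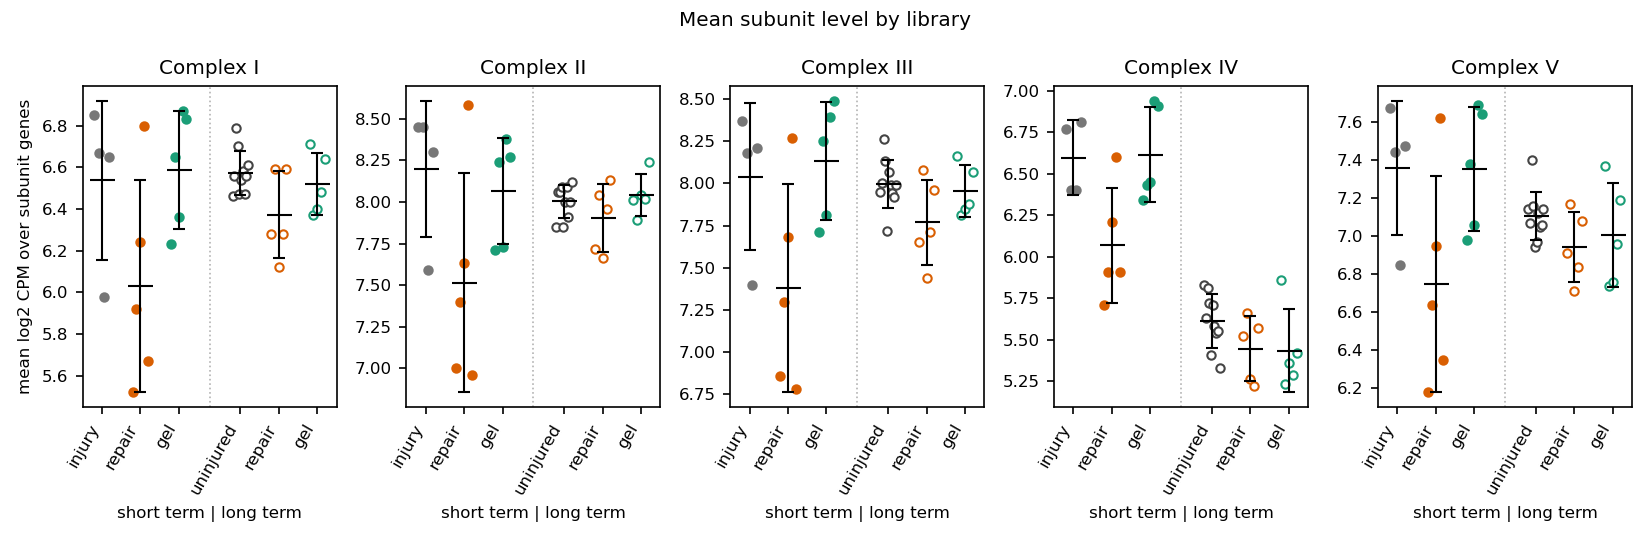
Mean log2 CPM over the subunit genes of each complex (vertical axes, scaled separately) in every library (points; filled for the short term, open for the long term), with the mean and SD of each group in black. In the short-term repair group 1 library, replicate 4, lies well above the other 4 in every complex, and in the injury group replicate 3 lies lowest in complexes I, II, III and V.

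The repair was next compared with the untreated injury in the short term, 5 libraries against 4. The medians of all 5 complexes were below 0, while 3 genes of complex IV and 1 of complex I were above 0, and no single gene passed the test. The median log2 difference, repair minus injury, was -0.53 over the 52 named genes and -0.54 over the 71, against 0.02 over all genes, and 50 of 52 were below 0, as were 48.3% of all genes. With edgeR 0 of 52 passed the test, against 0.0% of all genes. At an unadjusted p under 0.05, 8 of 52 (15.4%) were lower and 1 was higher, against 5.09% and 9.50% of all genes. DESeq2 called 0, beside 1.81% of all genes, and voom with quality weights called 46, beside 34.8%. The fit of all 34 libraries called 2, NDUFA4L2 and ATP5F1, beside 4.84%. On library totals the median was -0.17 with 7 of 52 above 0, as were 80.5% of all genes, and 0 called, beside 0.0% of all genes. The all-gene median moved the same way, from 0.02 to 0.39. The size of the difference against 0 thus depended on the scaling, while the subunit median lay about as far below the all-gene median on both scales. The medians by complex were -0.52 (I), -0.56 (II), -0.56 (III), -0.59 (IV) and -0.54 (V).

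Without repair replicate 4 and injury replicate 3, 49 of the 52 genes passed the test in edgeR, beside 33.3% of all genes. The median over the 52 was then -1.05, and over the 71 genes -1.03, with 64 lower and 1 higher. The genes that fell made up 27 of 30 in complex I, 4 of 4 in complex II, 6 of 6 in complex III, 10 of 14 in complex IV and 17 of 17 in complex V. The medians by complex were -0.98, -1.07, -1.11, -1.04 and -1.03. This count is a description of the remaining 4 against 3 libraries, since the libraries left out were chosen for lying apart in these groups. In the libraries left out, injury replicate 3 lay within the range of the 4 other repair libraries for 56 of 71 genes, and repair replicate 4 within that of the 3 other injury libraries for 35.

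For SDHA and COX7A1 the size and the call of the difference moved with these 2 libraries. SDHA had 1000, 1060, 705 and 1040 CPM with injury and, as above, 285, 448, 513, 1360 and 252 CPM with repair. Its log2 difference was -0.75 (SE 0.45, adjusted p = 0.403), and -1.53 (SE 0.36, adjusted p = 0.00951) without the 2 libraries. COX7A1, the muscle isoform of its pair, had 430, 335, 188 and 402 CPM with injury and 79.5, 122, 202, 393 and 72.7 CPM with repair. It was the lowest of complex IV in this comparison at -0.98 (SE 0.53, adjusted p = 0.377), and -1.76 (SE 0.50, adjusted p = 0.0204) without them. In both genes the lowest injury library was replicate 3 and the highest repair library replicate 4.

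NDUFS6, an accessory subunit of complex I, had 139, 100, 69.1 and 125 CPM with injury and 33.8, 40.6, 68.6, 122 and 42.5 CPM with repair (-0.82, SE 0.37, adjusted p = 0.341). ATP5F1, the b subunit of the stalk of complex V, had 278, 265, 162 and 196 CPM with injury and 90.5, 122, 146, 209 and 91.8 CPM with repair. It had the smallest p of the subunit genes (-0.78, SE 0.25, adjusted p = 0.322) and passed in the fit of all 34 libraries (adjusted p = 0.0271). COX5A, a matrix-facing subunit of complex IV, had 418, 401, 179 and 355 CPM with injury and 101, 149, 191, 392 and 117 CPM with repair. In all 3 genes repair replicate 4 lay inside the injury range. UQCRQ was the lowest of complex III at -0.84 (SE 0.33, adjusted p = 0.322).

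Some genes did not share the lower level with repair. COX6A1 had a difference of 0.21 (SE 0.44), COX8A 0.49 (SE 0.41), COX4I2 0.0023 (SE 0.34) and COX7A2L, a factor for joining complexes III and IV, -0.0033 (SE 0.18). Without the 2 libraries these were 0.75 (adjusted p = 0.165), 0.88 (adjusted p = 0.124), 0.11 and 0.10. NDUFA4L2 had 3.19, 2.84, 4.84 and 3.20 CPM with injury, and its difference of 2.72 (SE 1.01, adjusted p = 0.322) again came from repair replicate 5, without which it was 0.15. It was also the gene called higher without the 2 libraries (3.14, adjusted p = 0.0396).

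Markers of other tissue differed between these groups in both directions. All 7 fibroblast and collagen markers were above 0 in repair minus injury (median log2 difference 2.42, 0 called), and their sums were 1250 to 8390 CPM with injury and 1230 to 83900 CPM with repair. The 6 fast fibre markers had a median of -0.97 with 6 of 6 below 0 and 0 called, and slow fibre sums were 17200 to 24700 CPM with injury and 2870 to 14800 CPM with repair. The slow fibre ranges therefore did not overlap between injury and repair. The 5 measured adipocyte markers lay below 0, as the subunit genes did (median -1.70, 0 called), with sums of 390 to 1790 CPM with injury and 235 to 671 CPM with repair. Macrophage markers summed to 15.1 to 96.6 CPM with injury and 15 to 263 CPM with repair. The part of these cell types in the result was not tested. As a share of all raw counts of a library, the 71 subunit genes made up 1.25% to 1.6% with injury (median 1.49%), 0.908% to 1.55% with repair (1.26%) and 1.41% to 2.17% with the gel (1.56%), with overlap between injury and each of the others.

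The gel was then set against the injury, 5 libraries against 4, and the subunit genes lay near 0. The median log2 difference was 0.04 over the 52 genes and 0.07 over the 71, against 0.02 over all genes, with 30 of 52 above 0 and 51.9% of all genes. The edgeR test passed 0 of 52, against 0.0% of all genes. At an unadjusted p under 0.05, 1 of 52 was higher and 0 lower, against 9.83% and 8.6% of all genes. DESeq2 and voom called 0, beside 5.05% and 28.1%. The medians by complex were 0.10 (I), -0.08 (II), 0.12 (III), 0.08 (IV) and -0.02 (V). The genes farthest from 0 were ATP5G3 at 0.57 (SE 0.26, adjusted p = 0.254), NDUFA4L2 at 0.54 (SE 0.94) and COX7A1 at -0.52 (SE 0.53). COX7A2L had the smallest p (0.49, SE 0.18, adjusted p = 0.200), with 26.1, 22.6, 40.3 and 30.8 CPM with injury and 31.4, 39.2, 50.4, 41.5 and 43.8 CPM with the gel. COX7A2L, which is not among the 52, was called by voom (0.62, adjusted p = 0.0103).

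The sign of the median rested on injury replicate 3: without it the median over the 52 genes was -0.20. With repair replicate 4 left out as well it was -0.14 over the 71 genes, with 12 of 71 above 0, and COX7A2L was called higher (adjusted p = 0.0272) beside 18.9% of all genes. Complex II was then lowest at -0.33 and complex IV nearest 0 at -0.09. A difference near 0 does not show that the levels were alike. On simulated counts for gel against injury, genes changed 2-fold were recovered in 19% of cases and genes changed 4-fold in 72%. On library totals the median over the 52 genes was 0.28 with 50 above 0, 11 higher at an unadjusted p under 0.05 (8.18% of all genes) and 0 called, beside 0.0% of all genes, against an all-gene median of 0.17. The 3 short-term comparisons share libraries, so their directions are not independent of each other.

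**Figure D3:**
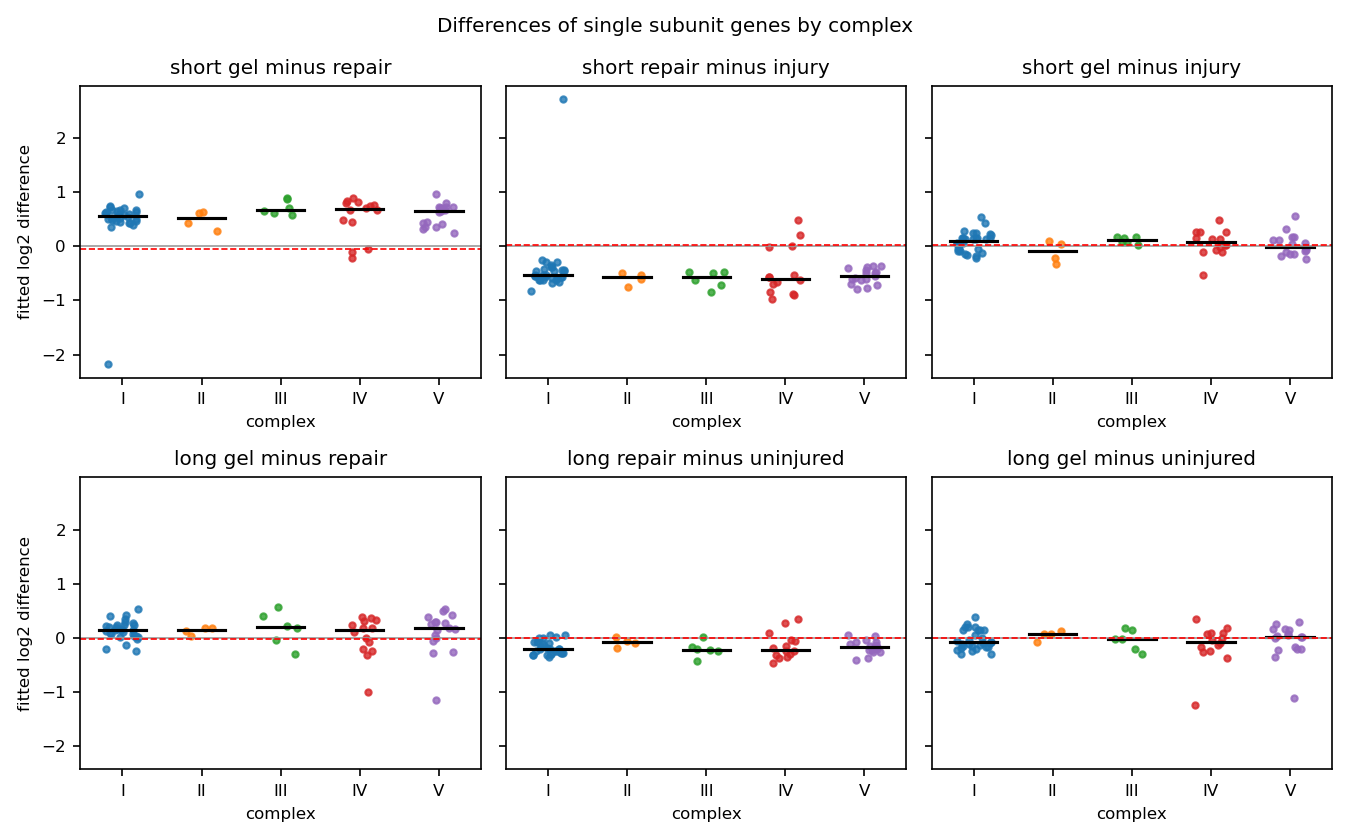
Fitted log2 difference (vertical axis) of each of the 71 subunit genes (points) by complex in the 6 comparisons within a term, with the median of each complex as a black bar and the median of all genes tested as a dashed red line. The complex medians lie at 0.52 to 0.70 for short-term gel minus repair and at -0.59 to -0.52 for repair minus injury, and within 0.22 of 0 in the long term; the far points of complex I in the short term are NDUFA4L2, and the low points in the long term are COX6C and ATP5J.

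Other genes of the pathway were taken from a list of assembly factors, which build the complexes without staying in them, and a list of electron carriers and coenzyme Q synthesis genes. Of 52 assembly factors 45 were measured, and of 19 carrier and coenzyme Q genes 17. In short-term gel minus repair, 40 of 45 assembly factors were above 0 with a median of 0.27, and 17 of 17 carrier and coenzyme Q genes with a median of 0.48. In repair minus injury, 41 of 45 were below 0 (median -0.38) and 16 of 17 (median -0.43). With edgeR 0 genes of either list passed in any of the 6 comparisons within a term. Without adjustment (p under 0.05), 7 of 45 assembly factors and 5 of 17 carrier and coenzyme Q genes were higher in gel minus repair, against 5.65% of all genes. In repair minus injury 4 of 45 and 6 of 17 were lower, against 5.09% of all genes. In that comparison 1 carrier or coenzyme Q gene was higher, against 9.5% of all genes. Without the 2 short-term libraries set apart, 26 of 45 assembly factors and 10 of 17 carrier genes fell in repair minus injury and 1 carrier gene rose, beside 33.3% of all genes called in either direction. The assembly factors lay nearer 0 than the subunits in both comparisons, a difference that was not tested.

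In the long term, gel and repair were compared over 5 libraries each. The median coefficient of variation over the subunit genes was 17.4% with repair, against 46.2% in the short term, and 27.7% with the gel, against 24.4%. Over all genes tested it was 17.5% with repair, against 33.9% in the short term, and 31.4% with the gel, against 25.0%. The median log2 difference, gel minus repair, was 0.16 over the 52 genes and over the 71, against -0.03 over all 11605 genes tested, and 43 of 52 were above 0, as were 46.3% of all genes. With edgeR 0 of 52 passed, against 0.0% of all genes. At an unadjusted p under 0.05, 8 of 52 (15.4%) were higher and 1 was lower, against 7.88% and 6.32% of all genes. DESeq2 and voom called 0, beside 0.0491% and 0.0% of all genes. The medians by complex were 0.15 (I), 0.15 (II), 0.21 (III), 0.14 (IV) and 0.18 (V). Without gel replicate 1 the median over the 71 genes was 0.06, with 49 of 71 above 0 and complex IV at -0.07. With the animal as a block the median over the 52 was 0.03. On library totals it was also 0.03, with 30 of 52 above 0, against an all-gene median of -0.17. The 8 genes higher and 1 lower at an unadjusted p under 0.05 then became 0 higher and 2 lower, against 2.47% and 9.63% of all genes. Markers differed as well: adipocyte sums were 208 to 917 CPM with repair (median 363) and 172 to 321 CPM with the gel (211). Fibroblast and collagen sums were 902 to 2650 CPM (1590) and 854 to 1280 CPM (985), and their part in the result was not tested.

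UQCRQ was the only 1 of the 71 whose long-term repair and gel groups did not overlap, beside 1.02% of all genes higher with the gel without overlap. It had 310, 337, 199, 253 and 287 CPM with repair and 636, 362, 371, 363 and 360 CPM with the gel. Apart from gel replicate 1 the gel libraries lay between 360 and 371 CPM, and the log2 difference was 0.57 (SE 0.21, adjusted p = 0.302), or 0.38 without that replicate. In uninjured muscle UQCRQ ranged from 240 to 524 CPM with a median of 368, and all operated libraries but repair replicate 3 and gel replicate 1 lay within that range. UQCRB, another small subunit of complex III, went the other way at -0.30 (SE 0.18). COX6C, at -1.0 (SE 0.69), and ATP5J, at -1.15 (SE 0.66), were the lowest of complexes IV and V. ATP5SL, placed in complex V by its name alone, was the highest of the genes listed there at 0.54 (SE 0.21, adjusted p = 0.304).

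NDUFS3, an iron-sulphur arm subunit of complex I, had 116, 160, 80.3, 118 and 140 CPM with repair and 256, 139, 137, 152 and 158 CPM with the gel (0.43, SE 0.17, adjusted p = 0.306). NDUFB11, the highest of complex I at 0.53 (SE 0.21), had 113, 135, 94.2, 104 and 129 CPM with repair and 337, 124, 122, 133 and 134 CPM with the gel. Its difference was 0.15 without gel replicate 1, which alone held the high value. COX5A, the highest of complex IV at 0.39 (SE 0.19), went to 0.13 without the same library. SDHA, the lowest of complex II, had 1280, 1460, 1210, 1600 and 1750 CPM with repair and 1210, 1530, 1590, 1490 and 1790 CPM with the gel (0.04, SE 0.14), so the ranges were nearly the same.

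Gel replicate 1 was not high for every subunit. It had 10.5 CPM of NDUFA5, an accessory subunit of complex I, against 37.4 to 41.8 CPM in the other gel libraries, and 120 CPM of UQCRB against 220 to 271 CPM. For ATP5B it had 3610 CPM against 1620 to 2080 CPM, and for SDHB 640 CPM against 320 to 374 CPM. Genes of the same complex were thus at opposite ends of the group in this library. It also had the highest slow fibre sum of its group (37900 CPM, group median 18300) and the highest fast fibre sum (85400 CPM, median 83200). Its TMM factor of 0.7245 was the lowest of all 34 libraries, and a low factor raises the CPM of every gene of a library. The part of fibre content and of scaling in these values was not tested.

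Against uninjured muscle, 10 libraries, the long-term repair showed somewhat lower levels of subunit genes. The median log2 difference, repair minus uninjured, was -0.19 over the 52 and over the 71 genes, against a median of all genes of -1.2e-05, and 44 of 52 were below 0, as were 50.0% of all genes. With edgeR 0 of 52 passed, beside 1.01% of all genes. At an unadjusted p under 0.05, 10 of 52 (19.2%) were lower and 0 higher, against 3.87% and 7.85% of all genes. DESeq2 and voom called 0, beside 1.96% and 0.233%. The medians by complex were -0.21 (I), -0.08 (II), -0.22 (III), -0.22 (IV) and -0.17 (V). Each operated muscle was also set against the uninjured muscle of the same number code. The mean log2 CPM over the 71 genes was then lower in 3 of 5 repair muscles (mean difference -0.14). It was lower in 4 of 5 gel muscles (mean difference -0.12). Under this pairing the treatments lay at similar distances from uninjured muscle. The reference group here is uninjured muscle and not the injury, so the size is not compared with that of the short term.

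NDUFA12, an accessory subunit of complex I, was the lowest of its complex and had the smallest p. It had 98.0, 124, 82.6, 88.7 and 119 CPM with repair and 117 to 159 CPM in uninjured muscle, with a median of 129 (log2 difference -0.35, SE 0.12, adjusted p = 0.221). Of the repair libraries 3 lay below the uninjured range and 2 in its lower part. COX7C, a small subunit of complex IV, had 41.8, 47.7, 27.8, 31.3 and 43.8 CPM with repair and 41.5 to 67.8 CPM in uninjured muscle, median 49.8 (-0.37, SE 0.14, adjusted p = 0.266). NDUFS6 had a difference of -0.28 (SE 0.10, adjusted p = 0.255). Complex II stayed nearest to uninjured muscle, with SDHA at 0.02 (SE 0.12), SDHB at -0.06 (SE 0.14), SDHC at -0.10 (SE 0.10) and SDHD at -0.19 (SE 0.18).

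The exceptions in complex IV were again COX8A, at 0.35 (SE 0.23), and COX6A1, at 0.27 (SE 0.21), while COX4I2 was its lowest at -0.46 (SE 0.22). Marker sums differed in these groups: adipocyte markers were 208 to 917 CPM with repair and 157 to 269 CPM in uninjured muscle, with 4 of 5 measured markers called higher. These calls were lost with the animal as a block (0 called, smallest adjusted p = 0.561) and without repair replicate 1 (smallest adjusted p = 0.0755) or 3 (0.0529), and voom and the fit of all 34 libraries called 0 as well. Fibroblast and collagen markers were 902 to 2650 CPM with repair against 431 to 1510 CPM, with 1 of 7 called higher, and 0 in each of those 5 fits. Their part in the lower subunit levels was not tested.

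With the gel, the median long-term subunit level lay near that of uninjured muscle in the unpaired edgeR fit with TMM scaling. On library totals the subunit median was below 0, as was that over all genes. It was also below 0 with the animal as a block and without gel replicate 1. The all-gene medians of those fits are not given, so no difference from other genes is read there. The median log2 difference, gel minus uninjured, was -0.02 over the 52 genes and -0.04 over the 71, against -0.01 over all genes, with 24 of 52 above 0, beside 49.1% of all genes. By edgeR 0 of 52 passed, beside 0.00862% of all genes. Without adjustment 1 was higher and 2 lower at p under 0.05, against 8.94% and 4.9% of all genes. DESeq2 and voom called 0, beside 0.0952% and 0.00862%. The medians by complex were -0.08 (I), 0.07 (II), -0.02 (III), -0.07 (IV) and 0.02 (V). Without gel replicate 1 the median over the 71 was -0.13, with 7 of 71 above 0, and with the animal as a block that over the 52 was -0.14. On library totals it was -0.15, with 12 of 52 above 0, beside 34.3% of all genes, against an all-gene median of -0.12. On that scale 0 were higher and 8 lower at an unadjusted p under 0.05, against 2.89% and 7.64% of all genes. NDUFA4, which is also counted as a subunit of complex IV, was the lowest of the NDUF genes at -0.29 (SE 0.13, adjusted p = 0.338). ATP5S, a coupling factor-like protein, had the smallest p (-0.35, SE 0.15, adjusted p = 0.331), followed by NDUFA4 and COX7A2L (-0.37, SE 0.17, adjusted p = 0.347). NDUFB11 was the highest of all at 0.38 (SE 0.18), which was -0.02 without gel replicate 1. In gel minus uninjured, slow fibre markers had a median of -0.56 (5 of 6 below 0) and fast fibre markers 0.57 (6 of 6 above 0). The medians of adipocyte, fibroblast and collagen, and macrophage markers were 0.78, 0.20 and 0.31. In each of these lists 0 markers were called, and their part in the subunit levels was not tested.

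The 10 uninjured libraries carry number codes that recur in the operated ones, 5 with repair and 5 with gel. These codes were read as animals, which no label states, and each operated muscle was set against the uninjured muscle of the same code. By correlation of deviations the own code was the best match in 4 of 5 repair pairs and in 0 of 5 gel pairs. The gel pairing thus rests on the codes alone. The mean log2 CPM over all 71 genes was below that of the own uninjured muscle in 3 of 5 repair animals, with differences of -0.29 to 0.05 (mean -0.14). It was below in 4 of 5 gel animals, with differences of -0.37 to 0.06 (mean -0.12). By complex, repair muscles were below their own control in 3 animals for complexes I, III, IV and V and in 4 for complex II. Gel muscles were below in 3 for complexes I and IV, 4 for complexes III and V and 2 for complex II. Of the 71 genes, 8 were below the own control in all 5 repair animals and 5 in all 5 gel animals. The share of all genes meeting this is not given, so nothing is read from these counts.

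Among uninjured muscles most subunit genes differed little between animals, with a median ratio of the highest to the lowest library of 1.44. ATP5J, the coupling factor of the stalk of complex V, differed 19.4-fold and COX6C, a small subunit of complex IV, 10.9-fold. COX7B, at very low counts in these libraries, came next at 5.42-fold, and these 3 were the only ones above 3-fold. They were singled out after their values were seen. For ATP5J, uninjured muscle ranged from 2.12 to 41.1 CPM with a median of 16. The animals of gel replicates 2 and 3 had 1.67 and 2.88 CPM in the operated muscle and 2.12 and 2.38 CPM in the uninjured one, while those of gel replicates 4 and 5 had 15.9 and 17.1 against 14.6 and 16.2 CPM.

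Low values of ATP5J were thus found in both muscles of the same 2 animals. In 9 of 10 animals the operated muscle was within 2-fold of the uninjured one. The exception was gel replicate 1, with 2.62 CPM against 41.1 CPM. For COX6C, 7 of 10 animals were within 2-fold: gel replicate 2 had 3.05 against 2.92 CPM and gel replicate 5 1.94 against 2.59 CPM, whereas gel replicate 3 had 17.1 against 14.3 CPM. Gel replicate 1 had 0.733 against 15.5 CPM, and repair replicates 3 and 4 had 4.47 against 13.2 and 5.54 against 23.0 CPM. The fitted group differences of these genes had large errors: gel minus uninjured was -1.11 (SE 0.59) for ATP5J and -1.24 (SE 0.62) for COX6C, with adjusted p of 0.393 and 0.377.

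**Figure D4:**
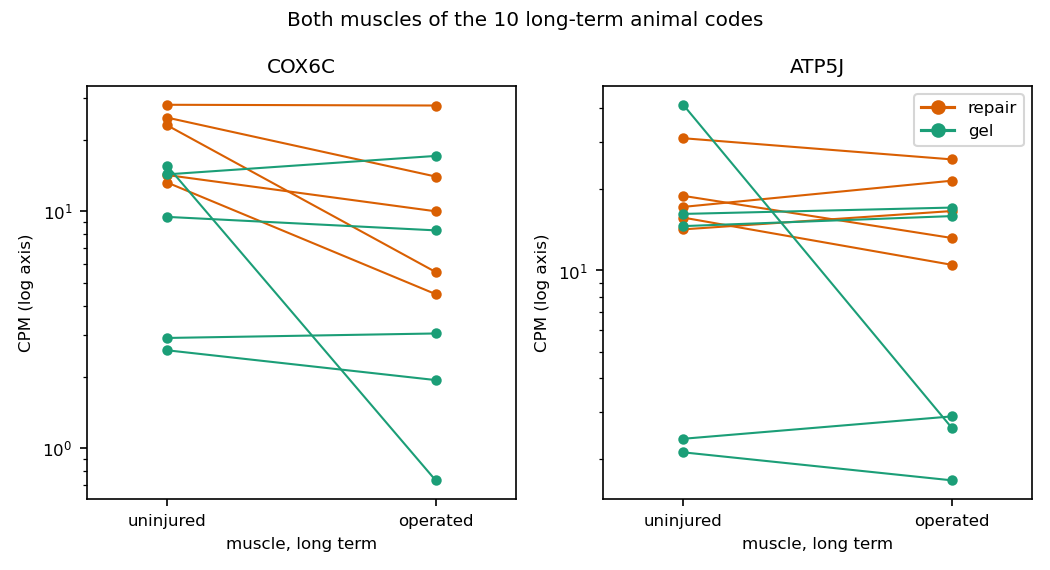
Level of COX6C and ATP5J in CPM (log axis) in the uninjured and the operated muscle of the 10 long-term animals, joined by a line for each animal code and coloured by treatment of the operated muscle. Most lines are nearly flat while the animals differ by 10-fold or more; gel replicate 1 drops from 41.1 to 2.62 CPM for ATP5J and from 15.5 to 0.733 CPM for COX6C.

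Isoform pairs were compared as log2 ratios of counts within a library (count + 0.5). Since longer transcripts give more reads, only differences of a ratio between groups are read, not its size. COX6A2 against COX6A1 and COX7A1 against COX7A2 set a muscle isoform against a widely expressed one. COX4I2 against COX4I1 and NDUFA4L2 against NDUFA4 set a hypoxia-linked form against the common one. In the short term the COX6A2 to COX6A1 ratio was 4.21 ± 0.75 (SD, n = 4) with injury, 2.70 ± 1.90 (SD, n = 5) with repair and 3.71 ± 1.40 (SD, n = 5) with the gel. The COX7A1 to COX7A2 ratio was 5.05 ± 0.47, 4.39 ± 0.86 and 4.07 ± 0.83 in the same groups. Ranges overlapped between all of these groups.

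In the long term, the COX6A2 to COX6A1 ratio was 4.98 ± 0.29 in uninjured muscle (SD, n = 10), 4.75 ± 0.67 with repair and 5.00 ± 0.30 with the gel (n = 5 each). The COX7A1 to COX7A2 ratio was 2.72 ± 0.24, 2.51 ± 0.33 and 2.87 ± 0.39. Over the 4 pairs and 6 comparisons within a term, 24 exact 2-sided permutation tests were made, and 0 had a p under 0.05. The lowest exact p was 0.0635, for COX7A1 to COX7A2 in short-term gel minus injury (difference -0.98, Benjamini-Hochberg adjusted p = 0.593). Groups of 5 against 4 or 5 against 5 allow an exact p down to 0.00794 and those of 5 against 10 down to 0.000333. The tests against uninjured muscle took all libraries as exchangeable and did not use the number codes. Against the uninjured muscle of the same code, COX7A1 to COX7A2 was lower in 4 of 5 repair and 2 of 5 gel muscles. COX6A2 to COX6A1 was lower in 3 of 5 and 2 of 5.

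Between terms the picture was different in kind: subunits of the same complex went far apart in opposite directions. These contrasts cannot be told apart from sequencing depth or from how the reads were counted, since the totals of the terms differ and so do the headers of their files. In the repair group, long minus short, 18 of the 52 genes were called higher and 9 lower, against 18.2% and 27.9% of all genes, and together 51.9% against 46.2%. In the gel group 11 were called higher and 11 lower, against 21.8% and 26.5%, and together 42.3% against 48.3%. Without the libraries set apart 41 of 52 passed with repair, beside 60.7% of all genes. On library totals 27 passed with repair and 34 with the gel, beside 47.2% and 46.3% of all genes, and the medians were -0.02 and -0.42, against -0.45 and -0.43 over all genes. The medians over the 52 were 0.23 and -0.09, against -0.11 and -0.09 over all genes. Leaving out 1 library at a time, the repair median ran from 0.106 (without short-term repair replicate 1) to 0.516 (without short-term repair replicate 4).

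The largest difference in both treatments was that of COX7B. This gene, which stands under LOC100342996 in the files, had 71.9 to 178 CPM in short-term repair and 0.509 to 1.61 CPM in long-term repair. With the gel it had 121 to 238 CPM and 0.647 to 0.942 CPM, and in uninjured long-term muscle 0.333 to 1.80 CPM. Its log2 difference was -6.94 (SE 0.34, adjusted p = 6.07e-17) with repair and -7.83 (SE 0.36, adjusted p = 6.87e-18) with the gel. Every long-term library, treated or not, was thus at the same very low level, behind which stood 4 to 25 counts. COX6C (-3.41 and -5.25), ATP5J (-2.64 and -4.17), SDHD (-2.20 and -2.67), COX7C (-1.87 and -2.36), NDUFAB1 (-1.76 and -1.88) and NDUFC2 (-1.75 and -2.47) were also lower in both treatments.

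Higher in the long term was ATP5I, the e subunit of the membrane part of complex V, with 0.987 to 4.28 CPM in short-term repair and 20.4 to 37.8 CPM in long-term repair (log2 difference 3.54, SE 0.31). COX7A2 (2.54 with repair and 1.69 with the gel), SDHA (1.35 and 1.03), NDUFS1 (1.45 and 0.84) and NDUFV3 (1.15 and 1.04) were higher too. UQCRB was called with repair (1.43, adjusted p = 4.74e-05) and not with the gel (0.31, adjusted p = 0.310). With the gel it was called by voom (0.48, adjusted p = 0.0201) and without the libraries set apart (0.46, adjusted p = 0.0383), so no difference between the treatments is read from this. Within complex II, SDHA, SDHB and SDHC were called higher and SDHD lower in both treatments. The spread over the genes of a complex was an SD of 1.70 for complex II and 2.30 for complex IV with repair, far above the 0.12 and 0.46 of short-term repair minus injury.

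**Figure D5:**
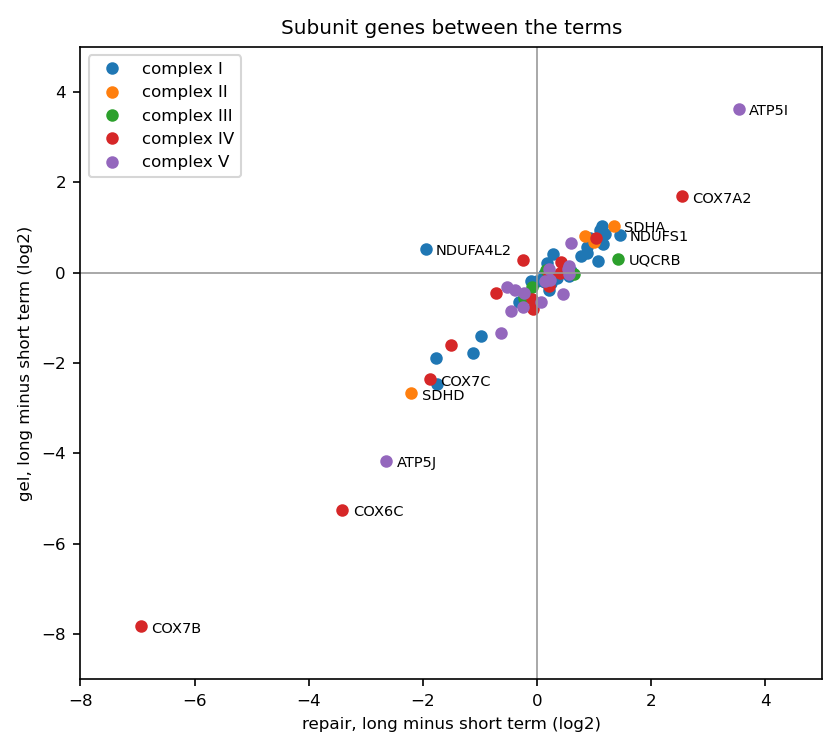
Log2 difference of each of the 71 subunit genes between the long and the short term in the repair group (horizontal) and the gel group (vertical), coloured by complex, with the genes discussed labelled. Most genes lie within 2 log2 units of 0, while COX7B, COX6C and ATP5J lie far below and ATP5I and COX7A2 above in both groups; NDUFA4L2 lies apart from the others.

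Lastly, the effect of the gel was compared between the terms as an interaction, gel minus repair in the long term less that in the short term. The median was -0.35 over the 52 genes, against 0.07 over all genes, and 45 of 52 were below 0, as were 44.5% of all genes. The edgeR test passed 0 of 52, beside 0.0155% of all genes. Of the 52, 7 (13.5%) were lower and 1 higher at an unadjusted p under 0.05, against 4.71% and 8.02% of all genes. DESeq2 and voom called 0, beside 0.187% and 0.0387%. On library totals the median was -0.45, with 2 of 52 above 0, and 21 lower and 1 higher at an unadjusted p under 0.05, against 3.3% and 6.08% of all genes, whose median was 0.06, and 0 of the 52 were called. The smallest p belonged to ATP5J2, the f subunit of complex V (-0.92, SE 0.28, adjusted p = 0.214), UQCRB (-1.12, SE 0.35, adjusted p = 0.216) and COX7A2 (-0.85, SE 0.28, adjusted p = 0.243). Without the 3 libraries set apart the median was -0.76, and ATP5J2 (adjusted p = 0.0165) and NDUFB3 (adjusted p = 0.0346) were called lower, beside 0.0765% of all genes. These calls describe the remaining libraries and are not an independent test, since the libraries left out were picked with their values known. Over all libraries, the difference in the gel effect between the terms did not pass the test for any subunit gene.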

How the data were processed

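For each of the 34 libraries the authors deposited raw counts of reads per gene. The submitters' processing notes list STAR, edgeR and OryCun2.0, without versions; what counted the reads, against which annotation and with or without strand, is not stated in the sources read here. Each file had 18210 entries. Those with names turned into dates (26, at most 0.163% of a library) were dropped, and 7 symbols that occur more than once (15 entries) were added up. Groups came from the titles, and animal codes from the files' names. LOC rows were matched to symbols by gene number in a RefSeq table of another rabbit assembly, mOryCun1.1, used for names only; no sequence or coordinate is given. Of 91 library pairs within groups 0 were identical, with a lowest chi-square per degree of freedom of 9.86.

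The count test was edgeR 4.0.16 in R 4.3.3 (filterByExpr, TMM factors, quasi-likelihood F-test with robust dispersions), with Benjamini-Hochberg adjustment over all genes and a threshold of 0.05, 2-sided. Separate fits were made to the 14 short-term libraries (13526 genes), to the 20 long-term libraries (11605 genes) and, for contrasts between terms, to all 34 (12935 genes). Log2 differences are fitted, with standard errors; complex means used log2 CPM with a prior count of 2, and CPM was computed on TMM-scaled totals. Alternatives were DESeq2 1.42.0, its size factors, library totals without TMM factors, limma 3.58.1 voom with quality weights, no filter, erythroid genes left out, other sets of libraries, replicate blocks and each replicate left out. Complexes were assigned by name; with NDUFA4 in complex IV and NDUFA4L2, ATP5S, ATP5SL and COX7A2L left out, the medians of complexes I to V in short-term gel minus repair were 0.56, 0.52, 0.68, 0.72 and 0.68.

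On simulated counts, 2-fold and 4-fold changes were recovered at 24% and 72% for short-term gel minus repair (13526 genes), 16% and 62% for repair minus injury, 56% and 93% for long-term gel minus repair (11605 genes) and 76% and 90% for repair minus uninjured. Replicate numbers in the titles did not pair the libraries. The number codes in the files' names were read as animals, which no label states, and used as a pairing in an alternative fit. Deviations of the same code correlated at -0.01 to 0.32 for repair and uninjured muscle and at -0.19 to 0.16 for gel and uninjured muscle. The best match was the own code in 4 of 5 repair pairs and in 0 of 5 gel pairs, so these correlations did not bear out the gel pairing. The members, lists and libraries set apart were chosen with earlier results of these data known. Genes were named by this rule: in each comparison those passing the test (at most 12), the highest and lowest of each complex, the 3 smallest p, and a panel of subunits with fixed roles, given where their values bear on a complex; NDUFA5, ATP5J and COX6C in the accounts of single libraries and animals were added for their values. The values of 1 subunit gene by itself are not reported here; it stays in the counts and medians.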

Additional observations from a re-analysis of the deposited data

Results flagged for a closer look

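Within groups of 4 to 10 libraries, 348 sets of values were searched for a library far from the others (Dixon's criterion), and 30 were found, of which 29 are given here, where chance gives about 1 in 20 sets. Values are log2 CPM unless called a ratio, and no explanation was tested.

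Long-term gel replicate 1 was far above the rest of its group for ATP5G1 (8.93), ATP5G2 (8.96), ATP5I (6.08), COX5B (9.62), NDUFB11 (8.40), NDUFS3 (8.00), NDUFV3 (6.24), SDHB (9.32), UQCRC1 (9.45) and UQCRQ (9.31). It was far below for UQCRB (6.91), and its log2 ratio was high for COX6A2/COX6A1 (5.54) and low for COX7A1/COX7A2 (2.19). In the same group replicate 5 was far above for ATP5F1 (6.92).

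Short-term injury replicate 3 was far below the other 3 libraries for ATP5B (10.12), COX7B (6.70), NDUFB3 (6.36), NDUFB4 (5.66), SDHA (9.46), SDHB (7.29), SDHD (6.30) and UQCRB (6.63), and its NDUFA4L2/NDUFA4 log2 ratio was high (-5.14). In short-term repair, replicate 5 stood above the rest for NDUFA4L2 (6.65, others 0.99 to 2.62) and replicate 4 for SDHC (8.45).

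Among uninjured muscles, replicate 3 was above the rest for the complex V mean (7.40) and ATP5E (7.69), replicate 4 for COX4I2 (1.69), and replicate 1 below the rest for NDUFS6 (5.6).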

How the results depend on the processing

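Of 216 recomputed medians 213 moved by less than the spread between libraries, and 196 of 207 counts of called genes stayed within 1.5 times. The others follow. In short-term gel minus repair 1 gene was called by DESeq2 and 1 with all 34 libraries in one fit, beside 0.854% and 0.719% of all genes. In repair minus injury 46 were called by voom, 49 without the libraries set apart and 2 with all 34, beside 34.8%, 33.3% and 4.84% of all genes. The median was -1.05 without the libraries set apart. Without those libraries 41 genes were called between terms with repair, beside 60.7% of all genes. For the gel effect between terms 2 were then called with a median of -0.756, beside 0.0765% of all genes. On library totals without TMM factors 34 genes were called between terms with the gel, beside 46.3% of all genes, at a median of -0.424. The cause was not tested.

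With the replicate number of the titles as a replicate block, 17 genes were called between terms with repair and 13 with the gel, beside 26.4% and 34.5% of all genes, and 0 in the comparisons within a term. The numbers did not pair the libraries: correlations of deviations were -0.387 to 0.412. With the animal code as the block 0 genes were called in the long term, and the medians were 0.03 for gel minus repair, -0.14 for repair minus uninjured and -0.14 for gel minus uninjured.

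Signs turned mostly for differences near 0; fitted log2 differences of genes and differences of log2 isoform ratios under the setting that turned them were as follows. With each replicate left out in turn, short-term gel minus repair gave -0.372 to 0.141 for COX8A, -2.48 to 0.346 for NDUFA4L2, -0.609 to 2.72e-05 for COX7A1/COX7A2. In short-term repair minus injury, ATP5S was 0.0332 (library totals). In short-term gel minus injury, NDUFS6 was 0.00139 (library totals). SDHB was -0.0996 (voom), -0.136 (without the libraries set apart), -0.0486 (the title-number block). UQCRC2 was -0.0622 (voom), -0.0818 (without the libraries set apart). UQCRQ was -0.137 (voom), -0.0233 (no filter), -0.192 (without the libraries set apart), -0.00364 (all 34 libraries), -0.0184 (only the groups compared), -0.144 (the title-number block). COX4I2/COX4I1 was 0.125 (without the libraries set apart). Leaving out 1 replicate at a time in short-term gel minus injury gave -0.136 to 0.157 for SDHB, -0.0817 to 0.277 for UQCRC2, -0.192 to 0.192 for UQCRQ, -0.387 to 0.125 for COX4I2/COX4I1, -0.826 to 0.0539 for COX6A2/COX6A1.

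In long-term gel minus repair, COX6C was 0.284 (the animal block). SDHA was -0.0686 (library totals), -0.00229 (the animal block). SDHB was -0.0277 (voom), -0.00821 (without the libraries set apart). COX4I2/COX4I1 was -0.00657 (pseudocount 2). NDUFA4L2/NDUFA4 was -0.0822 (without the libraries set apart). Leaving out 1 replicate at a time in long-term gel minus repair gave -0.0227 to 0.124 for SDHA, -0.00821 to 0.27 for SDHB, -0.131 to 0.123 for COX4I2/COX4I1, -0.0822 to 0.307 for NDUFA4L2/NDUFA4. In long-term repair minus uninjured, ATP5J2 was -0.00152 (the title-number block), -0.0115 (the animal block). SDHA was -0.00204 (the title-number block). UQCRB was -0.000916 (DESeq2), -0.00403 (no filter), -0.00552 (all 34 libraries), -0.00932 (only the groups compared), -0.0236 (the title-number block), -0.021 (the animal block). Leaving out 1 replicate at a time in long-term repair minus uninjured gave -0.0453 to 0.0793 for SDHA, -0.0482 to 0.0762 for UQCRB, -0.388 to 0.0173 for COX6A2/COX6A1. In long-term gel minus uninjured, ATP5G1 was -0.0738 (voom), -0.118 (without the libraries set apart). COX8A was -0.0178 (voom), -0.0596 (without the libraries set apart). NDUFB11 was -0.0174 (without the libraries set apart). SDHB was -0.0462 (voom), -0.0036 (library totals), -0.0775 (without the libraries set apart). SDHD was 0.0627 (without the libraries set apart), 0.0349 (the title-number block). UQCRC1 was -0.0118 (voom), -0.0222 (without the libraries set apart). COX6A2/COX6A1 was -0.113 (without the libraries set apart). Leaving out 1 replicate at a time in long-term gel minus uninjured gave -0.118 to 0.386 for ATP5G1, -0.0596 to 0.517 for COX8A, -0.0174 to 0.475 for NDUFB11, -0.0775 to 0.208 for SDHB, -0.201 to 0.0627 for SDHD, -0.0222 to 0.252 for UQCRC1, -0.113 to 0.0656 for COX6A2/COX6A1.

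In repair between terms, NDUFA4L2 was 0.178 (voom). UQCR10 was 0.0471 (without the libraries set apart). With each replicate left out in turn, repair between terms gave -2.25 to 0.587 for NDUFA4L2, -0.334 to 0.0453 for UQCR10. In the gel effect between terms, ATP5SL was -0.115 (voom), -0.382 (without the libraries set apart). With each replicate left out in turn, the gel effect between terms gave -0.208 to 0.354 for ATP5SL, -0.0596 to 2.77 for NDUFA4L2, -0.389 to 0.0527 for SDHC, -0.34 to 0.0558 for UQCRC1.

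COX7B had 4 to 25 counts in the long term, too few for a precise difference between long-term groups. The medians over the 52 genes, with each replicate left out in turn, ranged from 0.424 to 0.876 for short-term gel minus repair, from -0.819 to -0.443 for repair minus injury and from -0.196 to 0.141 for gel minus injury. In the long term they ranged from 0.0589 to 0.205 for gel minus repair, from -0.241 to -0.119 for repair minus uninjured and from -0.113 to 0.0386 for gel minus uninjured. Between terms they ranged from 0.106 to 0.516 with repair, from -0.186 to -0.0125 with the gel and from -0.645 to -0.229 for the gel effect.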
